A study of Mus musculus with 3 samples.

Results

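In the suprarenal aorta of apoE null mice, 104 genes were listed as higher than in Saline in both AngII cohorts, with and without an abdominal aortic aneurysm (AAA), and were not listed between the 2 AngII cohorts. Among them were the metallothioneins *Mt1* and *Mt2*, the collagen crosslinking enzymes *Lox* and *Loxl2*, the protease inhibitor *Serpina3n*, and groups of cell cycle, interferon, and macrophage genes. The 104 genes came from 1238 entries listed in at least 1 of the 3 comparisons. The genes were chosen by measured values, since a gene entered only if the deposited tables for AngII AAA vs. Saline and AngII No AAA vs. Saline both held it with a higher value in the AngII library, and if the table for AngII AAA vs. AngII No AAA did not hold it. Of 235 entries in both comparisons with Saline, 152 were absent from the third table, 123 of these were higher in both AngII libraries, and 19 of the 123 were left out by symbol. The symbols left out were collagens, hemoglobins, histones, matrix metalloproteinases, ADAM proteases, chemokines and their receptors, C1q, Sfrp and Igfbp genes, and 8 single genes (*Fbn1*, *Mfap5*, *Lrg1*, *Glycam1*, *Lcn2*, *Hp*, *Cybb*, and *Ncf1*). Being higher than Saline was therefore a condition of entry and is no finding about these genes.

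AngII, the effector peptide of the renin-angiotensin system, raises blood pressure and acts on smooth muscle cells, fibroblasts, endothelial cells, and leukocytes of the vessel wall, mostly through the type 1 receptor. In hyperlipidemic mice its infusion is used to produce dissecting AAAs of the suprarenal aorta, and only part of the infused animals form one. Injured arterial walls are known to express acute phase and metal-binding proteins, matrix crosslinking enzymes, protease inhibitors, cell cycle genes, and genes of infiltrating macrophages.

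All 3 cohorts were male apoE null mice on the C57BL/6 strain that had surgery at 12 weeks of age and then received AngII or saline. Tissue of the AngII AAA cohort was taken within 24 hours of the diagnosis of a dissecting AAA, whereas AngII No AAA and Saline tissue was taken on day 10, so that time of harvest and aneurysm cannot be told apart. RNA of the mice in a cohort was mixed in equal amounts into 1 pooled library per cohort, with 35000000 to 43000000 reads per library according to the labels. With 1 library per cohort, no difference described here has a replicate check, no test was run, and values from single mice are hidden in the pools. Values are FPKM (fragments per kilobase, corrected for the number of mapped fragments in the library), with the AngII No AAA value rescaled through the Saline library, so that levels can be set side by side between genes and libraries. Both comparisons with Saline share the same Saline library. In bulk tissue, fewer cells of a type and less RNA per cell cannot be told apart.

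Markers of muscle and of adrenal cortex differed between the 3 libraries. Skeletal muscle markers were lower in both AngII libraries than in Saline, 15 of 18 in AngII No AAA and 8 of 18 in AngII AAA, and the 8 with values in every library summed to 426 FPKM in Saline, 100.3 FPKM in AngII No AAA, and 93.8 FPKM in AngII AAA. Of 18 smooth muscle markers, no entry appeared in AngII No AAA vs. Saline, and 3 were lower in AngII AAA than in Saline. Between the AngII libraries 8 were lower in AngII AAA, among them *Acta2* at 304 against 926 FPKM in the table that compares these libraries. The 3 with values in every library summed to 349.6 FPKM in Saline, 211 FPKM in AngII No AAA, and 70.9 FPKM in AngII AAA. These were the 3 listed as lower in AngII AAA than in Saline, so that listing fixed their lower sum in AngII AAA. Their difference between AngII No AAA and Saline was not listed. The 6 adrenal cortex markers with values in every library summed to 12.9 FPKM in Saline, 14.6 FPKM in AngII No AAA, and 455 FPKM in AngII AAA. No adrenal cortex marker was listed in AngII No AAA vs. Saline. These 6 markers therefore had values in every library only by being listed as higher in AngII AAA in both other comparisons. That listing fixed their higher sum in AngII AAA. Here and below, such sums cover only markers that the authors' p-value filter kept in enough comparisons, so they describe selected markers. The part of these markers in the values of the 104 genes was not tested.

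Relative to Saline, the median log2 fold change of the genes was 2.19 (4.56-fold, range 1.59 to 3.77) in AngII AAA and 1.53 (2.89-fold, range 0.93 to 3.16) in AngII No AAA, over the 98 genes above 0 in every library. Among all entries listed for these comparisons, 84.6% were higher in AngII AAA and 63.5% were higher in AngII No AAA, and the higher entries had medians of 2.46 and 1.44. A difference of at least 4-fold was reached by 65 of the 98 genes in AngII AAA, beside 63.7% of all listed entries, and by 17 of 98 in AngII No AAA, beside 9.89%. All 17 of the latter were also at least 4-fold higher in AngII AAA. Of the 225 entries with finite ratios that were listed in both comparisons, 46 were at least 4-fold higher in AngII No AAA and 44 (19.6%) in both. Entry required a higher value, and the smallest listed log2 fold change among higher entries was 1.55 in AngII AAA and 0.93 in AngII No AAA. These counts and medians therefore describe the genes and support nothing further. Most of the genes were modest in Saline, with a median of 7.76 FPKM and 61 of 104 under 10 FPKM. The 235 entries listed in both comparisons were alike, with a median of 7.61 FPKM and 137 under 10 FPKM. In both AngII libraries 73 genes were at 10 FPKM or more and 13 at 100 FPKM or more, beside 149 and 20 of the 235 entries.

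**Figure D1:**
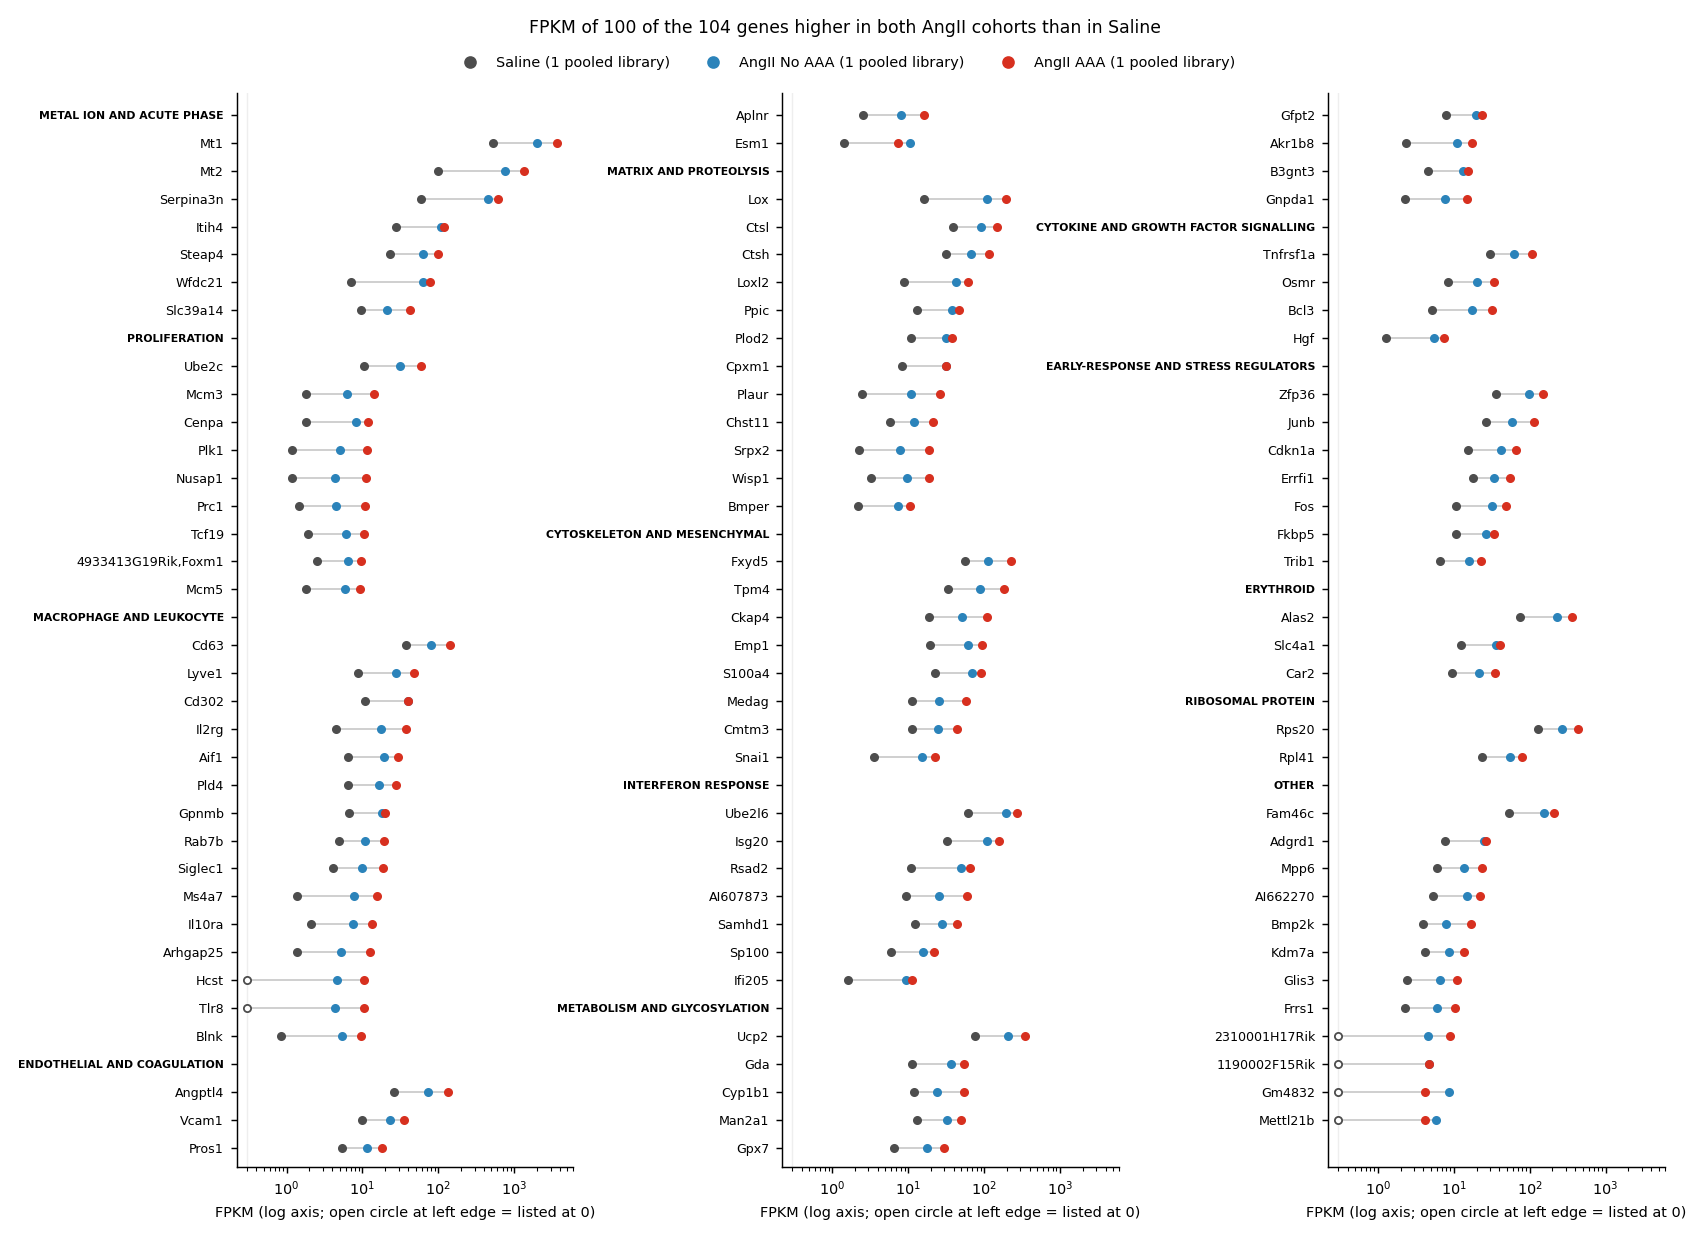
FPKM on a log axis of 100 of the 104 genes in the Saline (gray), AngII No AAA (blue), and AngII AAA (red) libraries, 1 pooled library each, arranged by group of genes. Open circles mark the 6 genes listed at 0 in Saline, and in 96 of the 100 genes the AngII AAA point lies to the right of the AngII No AAA point.

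Absence from the third table did not mean equal levels in the 2 AngII libraries. FPKM was higher in AngII AAA for 99 of the 104 genes, beside 85.8% of all entries listed in both comparisons with Saline, and higher in AngII No AAA for 5, among them *Esm1*, *Cpxm1*, *Gm4832*, and *Mettl21b*. The median log2 ratio of AngII AAA to AngII No AAA was 0.70 (1.62-fold, range -1.02 to 1.35). Among higher entries, the smallest listed log2 fold change was 1.55 in AngII AAA vs. Saline and 0.93 in AngII No AAA vs. Saline. Entry thus asked for a larger difference in AngII AAA. The counts and ratios between the AngII libraries, and the shares beside them, follow in part from this filter. Within 1.5-fold of each other were 34 genes, beside 24.5% of all entries listed in both comparisons. Over 2-fold higher in AngII AAA were 18 genes, beside 103 of 233 such entries. The rule kept out 78 entries higher than Saline in both but listed in the third table, and 77 of those were over 2-fold higher in AngII AAA. With the AngII libraries on the scale of their own comparison or with FPKM as deposited, 97 and 95 genes were higher in AngII AAA, since *Cd302* and *1190002F15Rik* changed order on both scales and *Adgrd1* and *Gpnmb* on the latter. On these scales 39 and 51 genes were within 1.5-fold. Among genes above 0 in every library, the ratios nearest to equal were those of *Cpxm1*, *Cd302*, *Adgrd1*, *Gpnmb*, and *Itih4*, with log2 ratios from -0.02 to 0.14. At the other end stood *Nusap1* (1.35), *Arhgap25* (1.3), *Srpx2* (1.29), *Plaur* (1.28), and *Prc1* (1.26). Just outside, and listed in the third table, were *Tnfaip2* (1.28), *Ifi30* (1.28), and *Il33* (1.3), so that genes in and out of the set overlapped in this ratio. The 78 entries that were higher than Saline in both comparisons but also listed in the third table had a median log2 fold change of 1.63 in AngII No AAA, 3.54 in AngII AAA, and 1.88 between them. The smallest differences from Saline in the set belonged to *Errfi1* (0.93 and 1.63), *Kdm7a* (1.05 and 1.69), and *Rps20* (1.07 and 1.76), given as the log2 fold change in AngII No AAA and then in AngII AAA.

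**Figure D2:**
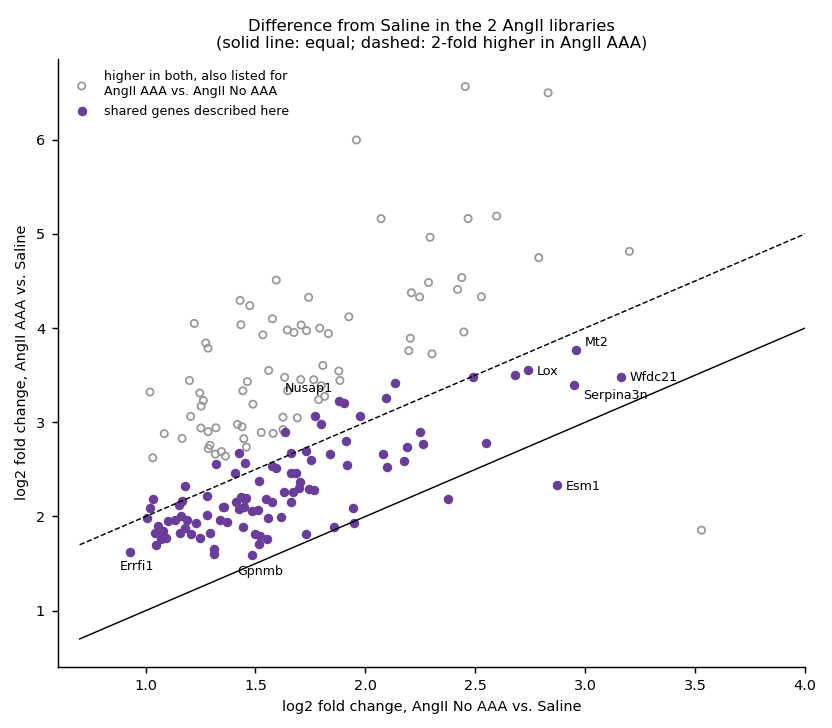
Log2 fold change against Saline in AngII No AAA (horizontal axis) and in AngII AAA (vertical axis) for the shared genes (filled purple, 98 with finite values) and for entries that were also listed between the AngII libraries (open gray, 77 with finite values). Most purple points lie between the solid line of equal values and the dashed line of a 2-fold higher value in AngII AAA, with *Esm1* under the solid line.

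The highest levels and the largest differences from Saline were found among 7 genes of metal ion handling and the acute phase, with median log2 fold changes of 1.94 for AngII No AAA and 2.8 for AngII AAA. *Mt1* and *Mt2* encode metallothioneins, small cysteine-rich proteins that bind zinc and copper and are induced by metals, glucocorticoids, and inflammation. *Mt1* was the most abundant of the 104 genes in every library, at 529 FPKM in Saline, 1990.2 FPKM in AngII No AAA, and 3682 FPKM in AngII AAA. *Mt2* was at 98.2 FPKM in Saline, 764 FPKM in AngII No AAA, and 1341 FPKM in AngII AAA, with log2 fold changes of 2.96 in AngII No AAA and 3.77 in AngII AAA. The 2 genes are neighbors in the mm9 build, *Mt2* at chr8:96696517-96697467 and *Mt1* at chr8:96702988-96704227, and 5.52 kb lie between them. Each was lowest in Saline, which entry required, and highest in AngII AAA, as were 99 of the 104 genes. Since these paralogs are alike in sequence, reads could have been split between them.

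The promoters of both metallothionein genes are shown because metal response elements (MREs, bound by the zinc-sensing factor MTF-1) are a known route of their induction by zinc. The RefSeq promoters on GRCm38.p6 run from 250 bases before to 50 bases after the first listed start, at chr8:94172368-94172667, plus strand for *Mt2* and chr8:94178839-94179138, plus strand for *Mt1*, and capitals mark matches to TGCGCNC or TGCACNC on either strand, with overlaps counted.
Mt2: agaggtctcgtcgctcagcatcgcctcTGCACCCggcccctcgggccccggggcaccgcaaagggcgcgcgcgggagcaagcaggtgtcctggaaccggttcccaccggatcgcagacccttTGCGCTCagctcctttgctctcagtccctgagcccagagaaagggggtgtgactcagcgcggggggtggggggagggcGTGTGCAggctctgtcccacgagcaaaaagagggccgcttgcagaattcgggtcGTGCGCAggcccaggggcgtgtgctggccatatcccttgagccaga
Mt1: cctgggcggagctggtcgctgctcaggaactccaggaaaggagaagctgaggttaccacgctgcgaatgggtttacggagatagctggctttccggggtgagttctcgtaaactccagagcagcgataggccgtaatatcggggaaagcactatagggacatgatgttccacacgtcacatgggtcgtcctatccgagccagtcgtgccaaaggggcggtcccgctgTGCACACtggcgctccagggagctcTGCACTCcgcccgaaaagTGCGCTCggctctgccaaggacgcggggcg
The *Mt2* window held 4 matches and the *Mt1* window 3. At least 1 match stood in 22 of the 76 genes of the set with a promoter in the table (28.9%) and in 25.6% of all 27025 promoters, and a match is a description of letters and not of a site in use.

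*Serpina3n*, a secreted inhibitor of serine proteases and an acute phase gene, was at 58.2 FPKM in Saline, 450.0 FPKM in AngII No AAA, and 614 FPKM in AngII AAA. *Wfdc21* of the whey acidic protein family had the largest log2 fold change in AngII No AAA of the whole set, 3.16, at 6.98 FPKM in Saline, 62.5 FPKM in AngII No AAA, and 77.8 FPKM in AngII AAA. *Itih4*, an acute phase protein related to the hyaluronan-binding inter-alpha-trypsin inhibitors, was nearly level between the AngII libraries, at 107 and 118 FPKM, and at 27.8 FPKM in Saline. *Steap4*, a metalloreductase, and *Slc39a14*, the zinc and iron importer ZIP14, completed the group, at 22.8, 62.2, and 97.8 FPKM and at 9.49, 21.3, and 42.5 FPKM in Saline, AngII No AAA, and AngII AAA. Of the 7 genes, *Slc39a14* differed most between the AngII libraries, with a log2 ratio of 1.00.

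Among 13 genes of the extracellular matrix and its proteolysis, the largest log2 fold changes in AngII AAA belonged to *Lox* and *Plaur*, with group medians of 1.74 for AngII No AAA and 2.3 for AngII AAA. *Lox*, lysyl oxidase, which forms the crosslinks of collagen and elastin, was at 16.4 FPKM in Saline, 109.5 FPKM in AngII No AAA, and 193 FPKM in AngII AAA. Its relative *Loxl2* was at 8.94 FPKM in Saline, 42.9 FPKM in AngII No AAA, and 60.8 FPKM in AngII AAA. *Plod2*, which hydroxylates collagen lysines for a stable type of crosslink, had smaller log2 fold changes of 1.52 in AngII No AAA and 1.79 in AngII AAA and was at 11, 31.6, and 38.2 FPKM in the same order of Saline, AngII No AAA, and AngII AAA. All 3 enzymes were lowest in Saline, which entry required. *Plaur*, the receptor of urokinase, was at 2.5 FPKM in Saline, 11 FPKM in AngII No AAA, and 26.7 FPKM in AngII AAA, and with a log2 ratio of 1.28 it was among the genes with the widest gap between the AngII libraries. *Srpx2*, a secreted ligand of that receptor, was at 2.28 FPKM in Saline, 7.8 FPKM in AngII No AAA, and 19.1 FPKM in AngII AAA and had nearly the same ratio, 1.29.

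Lysosomal cysteine proteases were represented by *Ctsl* (39.2, 91.9, and 149.7 FPKM in Saline, AngII No AAA, and AngII AAA) and *Ctsh* (32, 67.7, and 115 FPKM). Secreted modulators were represented by *Wisp1*, a matricellular protein of the CCN family, at 3.22 FPKM in Saline, 9.58 FPKM in AngII No AAA, and 18.7 FPKM in AngII AAA, and by *Bmper*, a BMP-binding protein, at 2.18 FPKM in Saline, 7.3 FPKM in AngII No AAA, and 10.7 FPKM in AngII AAA. *Chst11*, a chondroitin sulfotransferase, was at 5.78 FPKM in Saline, 12 FPKM in AngII No AAA, and 21.6 FPKM in AngII AAA. The remaining genes were *Ppic*, a cyclophilin of the secretory pathway, at 13.2, 37.4, and 46.6 FPKM, and *Cpxm1*, a carboxypeptidase-like protein, at 8.3, 32, and 31.6 FPKM. *Cpxm1* had the ratio nearest to equal among genes above 0 in every library, so that a higher level in AngII AAA was not general even within this group.

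The 8 genes of the cytoskeleton and of mesenchymal cells were well expressed, from 22.8 to 223 FPKM in AngII AAA, and had median log2 fold changes of 1.43 for AngII No AAA and 2.3 for AngII AAA. *Fxyd5*, dysadherin, a regulator of the sodium pump that weakens cell adhesion, was at 56.4 FPKM in Saline, 113 FPKM in AngII No AAA, and 223 FPKM in AngII AAA. *Tpm4*, a tropomyosin of non-muscle actin filaments, was at 33.8 FPKM in Saline, 89.6 FPKM in AngII No AAA, and 186 FPKM in AngII AAA. Of 18 smooth muscle markers, 8 were listed as lower in AngII AAA than in AngII No AAA. The rule let no gene of the set be listed in that comparison, so a contrast with these markers is no finding. *Snai1*, the zinc finger repressor of epithelial genes, had the lowest level and the largest log2 fold changes of the group (2.08 and 2.67), at 3.58, 15.2, and 22.8 FPKM in Saline, AngII No AAA, and AngII AAA. *S100a4*, a calcium-binding protein of fibroblasts and leukocytes, was at 22.8 FPKM in Saline, 69.8 FPKM in AngII No AAA, and 90.4 FPKM in AngII AAA. The others were *Ckap4*, *Emp1*, *Medag*, and *Cmtm3*, whose log2 ratios between the AngII libraries ran from 0.59 for *Emp1* to 1.15 for *Medag*.

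Cell cycle genes formed a group of 9 with low levels in Saline, from 1.18 to 10.3 FPKM, and median log2 fold changes of 1.7 for AngII No AAA and 2.74 for AngII AAA. Replication licensing was represented by the helicase subunits *Mcm3*, at 1.82 FPKM in Saline, 6.32 FPKM in AngII No AAA, and 14.3 FPKM in AngII AAA, and *Mcm5*, at 1.79 FPKM in Saline, 5.82 FPKM in AngII No AAA, and 9.2 FPKM in AngII AAA. Mitosis was represented by the kinase *Plk1*, at 1.19 FPKM in Saline, 5.08 FPKM in AngII No AAA, and 11.4 FPKM in AngII AAA, and by the ubiquitin-conjugating enzyme *Ube2c*, which serves the anaphase-promoting complex, at 10.3 FPKM in Saline, 31.2 FPKM in AngII No AAA, and 58.8 FPKM in AngII AAA. *Ube2c* was the only one of the 9 at 10 FPKM or more in both AngII libraries. The spindle proteins *Nusap1* (1.18, 4.35, and 11.1 FPKM in Saline, AngII No AAA, and AngII AAA) and *Prc1* (1.45, 4.5, and 10.8 FPKM) had the largest ratios between the AngII libraries in this group, 1.35 and 1.26. *Cenpa*, the histone variant of centromeres, was at 1.8 FPKM in Saline, 8.2 FPKM in AngII No AAA, and 12 FPKM in AngII AAA and had the smallest ratio, 0.55. *Tcf19*, a transcription factor of the G1/S transition, was at 1.89, 5.98, and 10.5 FPKM. A combined entry of *4933413G19Rik* and *Foxm1*, the latter a transcription factor of mitotic genes, was at 2.5, 6.46, and 9.61 FPKM, and its reads cannot be assigned to 1 of the genes. All 9 were lowest in Saline, which entry required, and highest in AngII AAA, as were 99 of the 104 genes. Over the 9 genes, 4 were more than 2-fold higher in AngII AAA than in AngII No AAA, against 18 of 104 for the set. Among all entries listed in both comparisons with Saline the count was 103 of 233.

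The promoters of *Ube2c* (chr2:164769679-164769978, plus strand) and *Plk1* (chr7:122159185-122159484, plus strand) are shown because mitotic genes are known for CCAAT boxes beside a cell cycle homology region (CHR, TTTGAA), both marked in capitals on either strand.
Ube2c: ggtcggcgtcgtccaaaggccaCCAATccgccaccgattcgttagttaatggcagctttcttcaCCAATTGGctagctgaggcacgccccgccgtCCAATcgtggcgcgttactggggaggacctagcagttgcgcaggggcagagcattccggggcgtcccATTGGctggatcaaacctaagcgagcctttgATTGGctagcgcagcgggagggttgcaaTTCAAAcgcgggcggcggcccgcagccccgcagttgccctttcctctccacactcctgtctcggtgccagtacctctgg
Plk1: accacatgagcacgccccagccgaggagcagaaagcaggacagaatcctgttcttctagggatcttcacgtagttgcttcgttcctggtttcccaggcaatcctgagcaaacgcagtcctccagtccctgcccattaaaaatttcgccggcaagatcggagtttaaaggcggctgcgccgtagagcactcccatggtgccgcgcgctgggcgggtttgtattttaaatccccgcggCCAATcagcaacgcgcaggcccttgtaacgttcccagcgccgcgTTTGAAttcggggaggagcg
*Ube2c* held 6 CCAAT matches, some of them overlapping, and 1 CHR match, and *Plk1* held 1 of each. A CCAAT match was present in 7 of the 8 proliferation genes with a promoter (87.5%), in 31.6% of the whole set, and in 37.9% of all promoters. A CHR match was present in 4 of these 8 genes and in 18.1% of all promoters. The E2F motif (TTTGGCGC or TTTCGCGC) was held by *Mcm3* and *Mcm5*, and by 0.833% of all promoters.

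Interferon-inducible genes numbered 7, with median log2 fold changes of 1.66 for AngII No AAA and 2.28 for AngII AAA and the smallest median log2 ratio between the AngII libraries of any group, 0.49. *Rsad2*, viperin, an antiviral enzyme of the endoplasmic reticulum, was at 11 FPKM in Saline, 49.5 FPKM in AngII No AAA, and 65.9 FPKM in AngII AAA. *Ifi205*, of the DNA-binding Ifi200 family, was at 1.62 FPKM in Saline, 9.51 FPKM in AngII No AAA, and 11.2 FPKM in AngII AAA, and *AI607873* of the same family was at 9.41 FPKM in Saline, 25.2 FPKM in AngII No AAA, and 59.9 FPKM in AngII AAA. The latter had the largest log2 ratio of the group, 1.25, against 0.24 for *Ifi205*, and their sequence likeness makes the split of reads between them uncertain. *Ube2l6*, which conjugates the ubiquitin-like protein ISG15, was the most abundant at 60.8 FPKM in Saline, 192 FPKM in AngII No AAA, and 270.0 FPKM in AngII AAA. *Isg20*, an RNA exonuclease, was at 32.7 FPKM in Saline, 111 FPKM in AngII No AAA, and 159 FPKM in AngII AAA. *Samhd1*, which hydrolyzes deoxynucleotides, was at 12.5, 27.9, and 44.3 FPKM and the nuclear body protein *Sp100* at 5.87, 15.9, and 21.7 FPKM in Saline, AngII No AAA, and AngII AAA. None of the 7 was higher in AngII No AAA, beside 5 of the 104 genes.

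The *Rsad2* promoter (chr12:26456403-26456702, minus strand) is shown with matches to a core of the interferon-stimulated response element (ISRE), AAANNGAAA on either strand, in capitals.
Rsad2: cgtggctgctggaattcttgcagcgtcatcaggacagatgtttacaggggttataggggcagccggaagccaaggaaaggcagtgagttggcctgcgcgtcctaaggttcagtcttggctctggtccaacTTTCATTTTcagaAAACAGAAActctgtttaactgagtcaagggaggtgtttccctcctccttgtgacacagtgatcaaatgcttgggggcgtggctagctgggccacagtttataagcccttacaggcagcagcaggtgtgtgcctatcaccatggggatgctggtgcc
It held 2 matches, and at least 1 was found in 5 of the 7 interferon genes (71.4%), in 17.1% of the set, and in 10.7% of all promoters. The letters of this core were widened after the *Rsad2* promoter had been seen, so that the counts are a description only.

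Macrophage and other leukocyte genes were the largest group, with 16 genes, of which 14 had finite log2 fold changes, with medians of 1.61 for AngII No AAA and 2.34 for AngII AAA. All 16 were higher in AngII AAA than in AngII No AAA, beside 99 of the 104 genes and 85.8% of all entries listed in both comparisons with Saline. Their log2 ratios ran from 0.03 for *Cd302* to 1.3 for *Arhgap25*, with *Cd302* and *Gpnmb* changing order on other scales. The adaptor *Blnk*, which couples immune receptors to signaling, was at 0.833 FPKM in Saline, 5.34 FPKM in AngII No AAA, and 9.44 FPKM in AngII AAA. *Ms4a7*, a membrane protein of macrophages, was at 1.39 FPKM in Saline, 7.78 FPKM in AngII No AAA, and 15.5 FPKM in AngII AAA. *Tlr8*, an endosomal receptor of single-stranded RNA, was listed at 0 in Saline and was at 4.33 FPKM in AngII No AAA and 10.3 FPKM in AngII AAA. *Hcst*, the DAP10 signaling adaptor, was likewise listed at 0 in Saline, with 4.69 and 10.5 FPKM in the AngII libraries. A fold change cannot be given for these genes.

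*Aif1* (6.49, 19, and 29.6 FPKM in Saline, AngII No AAA, and AngII AAA), *Siglec1* (4.03, 9.8, and 18.8 FPKM), and *Pld4* (6.4, 16.3, and 27.5 FPKM) are macrophage genes. *Lyve1*, a hyaluronan receptor of lymphatic endothelium and resident arterial macrophages, was at 8.71 FPKM in Saline, 28 FPKM in AngII No AAA, and 48 FPKM in AngII AAA. Cytokine receptors were represented by *Il2rg*, the common gamma chain, at 4.46 FPKM in Saline, 17.6 FPKM in AngII No AAA, and 37.3 FPKM in AngII AAA, and *Il10ra*, at 2.13 FPKM in Saline, 7.6 FPKM in AngII No AAA, and 13.5 FPKM in AngII AAA. *Gpnmb*, a glycoprotein of lipid-laden macrophages, and *Cd302*, a C-type lectin receptor, were nearly level between the AngII libraries, at 18.3 against 19.7 FPKM and at 39.5 against 40.3 FPKM. *Cd63*, a lysosomal tetraspanin that many cell types express, was the most abundant, at 36.9 FPKM in Saline, 79.2 FPKM in AngII No AAA, and 143 FPKM in AngII AAA. *Rab7b* and *Arhgap25* were at 4.85, 10.8, and 19.4 FPKM and at 1.38, 5.15, and 12.7 FPKM.

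Monocyte and macrophage markers at large were higher in the same libraries. Of 50 markers, 41 were listed as higher in AngII AAA than in Saline, 23 in AngII No AAA, and 34 in AngII AAA than in AngII No AAA, with none lower. The 39 markers with values in every library summed to 325 FPKM in Saline, 761 FPKM in AngII No AAA, and 3761 FPKM in AngII AAA, and *Tlr8* alone was at 0 in Saline. Markers have values only where they passed the p-value filter, mostly as higher in AngII AAA, so the order of these sums follows in part from that selection. Only 6 of the 50 belonged to the 104 genes (*Aif1*, *Gpnmb*, *Ms4a7*, *Pld4*, *Siglec1*, and *Tlr8*). How far the number of macrophages accounts for the values of these genes was not tested.

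Of 5 genes of cytokine and growth factor signaling, the ligand *Hgf*, hepatocyte growth factor, was at 1.28 FPKM in Saline, 5.47 FPKM in AngII No AAA, and 7.34 FPKM in AngII AAA. The receptors were *Osmr*, for oncostatin M, at 8.31 FPKM in Saline, 20.1 FPKM in AngII No AAA, and 33.6 FPKM in AngII AAA, and *Tnfrsf1a*, the type 1 receptor of tumor necrosis factor, at 30.2 FPKM in Saline, 62.1 FPKM in AngII No AAA, and 107 FPKM in AngII AAA. *Bcl3*, an atypical inhibitor of NF-kappa-B that acts in the nucleus, was at 5.24 FPKM in Saline, 17.6 FPKM in AngII No AAA, and 31.7 FPKM in AngII AAA. The median log2 fold changes were 1.75 for AngII No AAA and 2.19 for AngII AAA.

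Regulators of the early response to growth factors and stress numbered 7 and were at 6.51 to 35.6 FPKM in Saline, with median log2 fold changes of 1.31 for AngII No AAA and 2.06 for AngII AAA. The AP-1 subunits *Fos* and *Junb* were at 10.9, 32.3, and 48.3 FPKM and at 26.6, 59, and 116 FPKM in Saline, AngII No AAA, and AngII AAA. *Zfp36*, tristetraprolin, which destabilizes cytokine mRNAs, was the most abundant at 35.6 FPKM in Saline, 99.6 FPKM in AngII No AAA, and 149 FPKM in AngII AAA. *Cdkn1a*, the inhibitor p21 of cyclin-dependent kinases, was at 15.5 FPKM in Saline, 41.5 FPKM in AngII No AAA, and 65.6 FPKM in AngII AAA. *Fkbp5*, a co-chaperone induced by glucocorticoids, was at 10.7 FPKM in Saline, 26.5 FPKM in AngII No AAA, and 33.6 FPKM in AngII AAA and had the smallest ratio of these, 0.34. *Trib1*, a pseudokinase, and *Errfi1*, a feedback inhibitor of the EGF receptor, were at 6.51, 16, and 23.1 FPKM and at 17.8, 33.9, and 55 FPKM. *Junb* had the largest ratio between the AngII libraries, 0.97, and none of the 7 reached 4-fold in AngII No AAA.

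*Esm1*, endocan, a proteoglycan secreted by activated endothelium and tip cells, went against the trend of the set. It was at 1.45 FPKM in Saline, 10.6 FPKM in AngII No AAA, and 7.34 FPKM in AngII AAA, with log2 fold changes of 2.87 in AngII No AAA and 2.34 in AngII AAA. *Aplnr*, the receptor of apelin, had the opposite order, at 2.57 FPKM in Saline, 8.14 FPKM in AngII No AAA, and 16.4 FPKM in AngII AAA. *Angptl4*, an inhibitor of lipoprotein lipase, was at 25.9 FPKM in Saline, 74.1 FPKM in AngII No AAA, and 135 FPKM in AngII AAA, the adhesion molecule *Vcam1* was at 9.9, 22.8, and 34.9 FPKM, and *Pros1*, the anticoagulant protein S, was at 5.34, 11.4, and 18.3 FPKM in Saline, AngII No AAA, and AngII AAA. Of 15 endothelial markers, only *Emcn* was listed in a comparison, as higher in AngII AAA than in Saline.

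The set held 4 erythroid genes. *Alas2*, the first enzyme of heme synthesis in red cells, was at 75 FPKM in Saline, 233 FPKM in AngII No AAA, and 360.3 FPKM in AngII AAA. *Slc4a1*, the band 3 anion exchanger of red cells, was at 12.6, 36, and 41 FPKM, and *Car2*, a carbonic anhydrase found in red cells and elsewhere, at 9.52, 21.5, and 35 FPKM in Saline, AngII No AAA, and AngII AAA. Hemoglobin genes, left out by symbol, were also higher than in Saline, with *Hbb-b2* at 118 FPKM in Saline, 778 FPKM in AngII No AAA, and 754 FPKM in AngII AAA. The part that blood in the tissue had in these values was not tested.

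Metabolic and glycosylation enzymes numbered 9, with median log2 fold changes of 1.46 for AngII No AAA and 2.19 for AngII AAA. *Ucp2*, a mitochondrial carrier, was at 75.9 FPKM in Saline, 208 FPKM in AngII No AAA, and 347 FPKM in AngII AAA. *Akr1b8*, an aldose reductase-like enzyme, had the largest log2 fold changes of the group (2.25 and 2.89), at 2.34 FPKM in Saline, 11.1 FPKM in AngII No AAA, and 17.4 FPKM in AngII AAA, and has close paralogs with which reads could have been shared. *Cyp1b1*, a cytochrome P450 of vascular cells that oxidizes steroids and arachidonic acid, was at 11.8 FPKM in Saline, 24.3 FPKM in AngII No AAA, and 53.7 FPKM in AngII AAA and differed most between the AngII libraries (1.15). Enzymes of amino sugars and glycans were *Gfpt2* (7.9, 19.6, and 23.9 FPKM in Saline, AngII No AAA, and AngII AAA), *Gnpda1* (2.28, 7.57, and 14.8 FPKM), *B3gnt3* (4.57, 13.4, and 15.5 FPKM), and *Man2a1* (12.9, 32.7, and 50.4 FPKM). *Gda*, guanine deaminase, and *Gpx7*, a peroxidase of the endoplasmic reticulum, were at 11.2, 36.4, and 55.3 FPKM and at 6.48, 17.8, and 29.7 FPKM.

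The ribosomal protein genes *Rps20*, at 128 FPKM in Saline, 268 FPKM in AngII No AAA, and 434 FPKM in AngII AAA, and *Rpl41*, at 23.3 FPKM in Saline, 55.4 FPKM in AngII No AAA, and 79.8 FPKM in AngII AAA, have many pseudogene copies, and their values are uncertain for this reason. Among 12 further genes, *Fam46c*, a poly(A) polymerase, was the most abundant, at 53.4 FPKM in Saline, 157 FPKM in AngII No AAA, and 212 FPKM in AngII AAA. *Adgrd1*, an adhesion G protein-coupled receptor, was close to level between the AngII libraries at 25.3 and 26.7 FPKM, against 7.61 FPKM in Saline. Apart from *Tlr8* and *Hcst*, 4 genes were listed at 0 in Saline, and their values in the AngII libraries were low. *Gm4832* and *Mettl21b* were higher in AngII No AAA (8.55 and 5.93 FPKM) than in AngII AAA (4.2 and 4.17 FPKM). *1190002F15Rik* was at 4.78 and 4.8 FPKM, and *2310001H17Rik* at 4.59 and 9.02 FPKM, in AngII No AAA and AngII AAA. *AI662270*, *Mpp6*, *Bmp2k*, *Kdm7a*, *Glis3*, and *Frrs1* had log2 ratios between the AngII libraries from 0.56 for *AI662270* to 1.07 for *Bmp2k* and no more than 23.5 FPKM in any library.

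**Figure D3:**
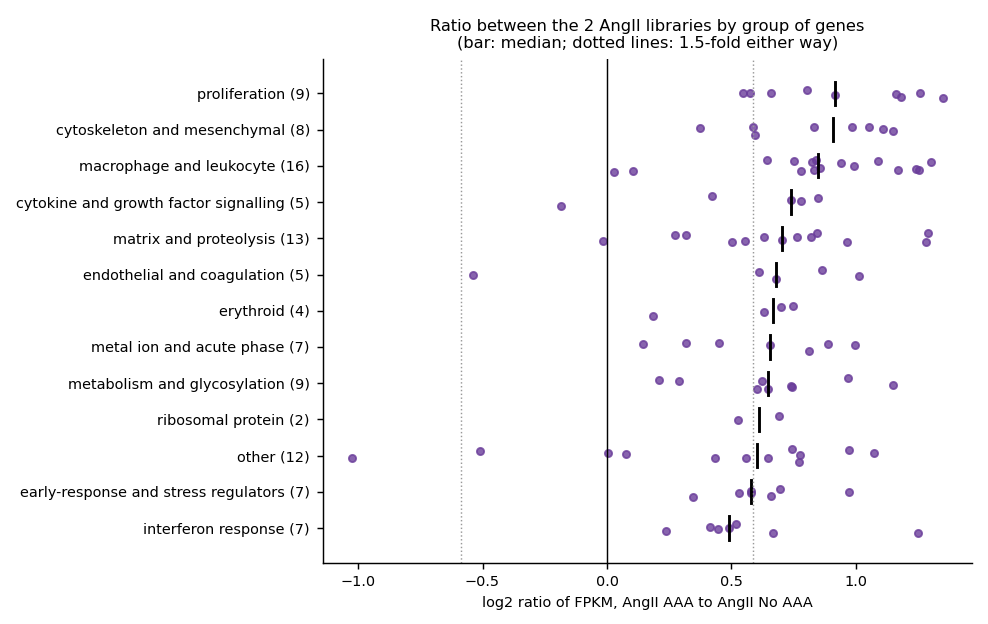
Log2 ratio of FPKM in AngII AAA to AngII No AAA for each gene (points) by group, with the number of genes in brackets, the group median as a bar, and dotted lines at 1.5-fold. Group medians run from 0.49 for interferon genes to 0.92 for proliferation genes, and the ranges of the groups overlap.

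By group, the median log2 ratio of AngII AAA to AngII No AAA was highest for proliferation (0.92), cytoskeleton and mesenchymal genes (0.91), and macrophage and leukocyte genes (0.85). It was lowest for interferon genes (0.49) and early-response regulators (0.58). Within 1.5-fold were 5 of 7 interferon genes, 4 of 7 early-response regulators, 5 of 13 matrix genes, 2 of 9 proliferation genes, and 2 of 16 leukocyte genes. For the whole set this count was 34 of 104, beside 24.5% of all entries listed in both comparisons with Saline. It was 39 and 51 on the other scales, so the group counts depend on the scale. No test was possible with 1 library per cohort, and the ranges of all groups overlapped.

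Gene lists of known pathways place the 104 genes among their relatives. Here and below, counts from the 2 comparisons with Saline have unlike reach. The smallest listed log2 fold change among higher entries was 1.55 in AngII AAA and 0.93 in AngII No AAA. A smaller count in AngII AAA therefore does not show that fewer genes of a list were higher there. Of 34 genes that process and crosslink collagen, 8 were listed as higher in AngII No AAA, 3 in AngII AAA, and none between the AngII libraries, and the 3 were *Lox*, *Loxl2*, and *Plod2*. Of 29 proteases and inhibitors, 10 were higher in AngII No AAA and 9 in AngII AAA, with 5 in the set. Among 77 proliferation genes, 21 were higher in AngII AAA and 12 in AngII No AAA, and 8 of them belonged to the set. For 29 interferon genes the counts were 6 and 4, with *Ifi205* and *Rsad2* in the set, and for 39 growth factor and cytokine genes 10 and 9, with *Hgf*, *Il10ra*, and *Osmr*. None of these lists held a gene that was lower in either comparison with Saline. Between the AngII libraries, 7 proliferation, 3 interferon, and 5 growth factor and cytokine genes were listed as higher in AngII AAA. Of the proteases and inhibitors, 3 were higher and 1 lower in AngII AAA than in AngII No AAA.

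Other lists shared fewer genes or none. Of 53 matrix glycoproteins, 6 were higher and 1 lower in AngII AAA and 9 were higher in AngII No AAA, with *Wisp1* in the set, and between the AngII libraries 5 were higher and 6 lower in AngII AAA. Of 32 proteoglycan and hyaluronan genes, 7 were higher and 2 lower in AngII AAA, and 4 were higher and 1 lower in AngII No AAA, with *Chst11* in the set. Of 26 integrin and leukocyte adhesion genes, 9 were higher and 1 lower in AngII AAA and 5 were higher in AngII No AAA, with *Vcam1* in the set. Between the AngII libraries, 5 proteoglycan and hyaluronan genes were higher and 3 lower in AngII AAA. For integrin and leukocyte adhesion genes these counts were 8 and 2. No gene of the set came from the lists for TGF-beta and BMP signaling (34 genes, 3 higher in AngII AAA and 5 in AngII No AAA), complement other than C1q (19 genes, 3 and 6), the vasoactive and renin-angiotensin systems (33 genes, 3 and 3), or antigen presentation (24 genes, none and 3).

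**Figure D4:**
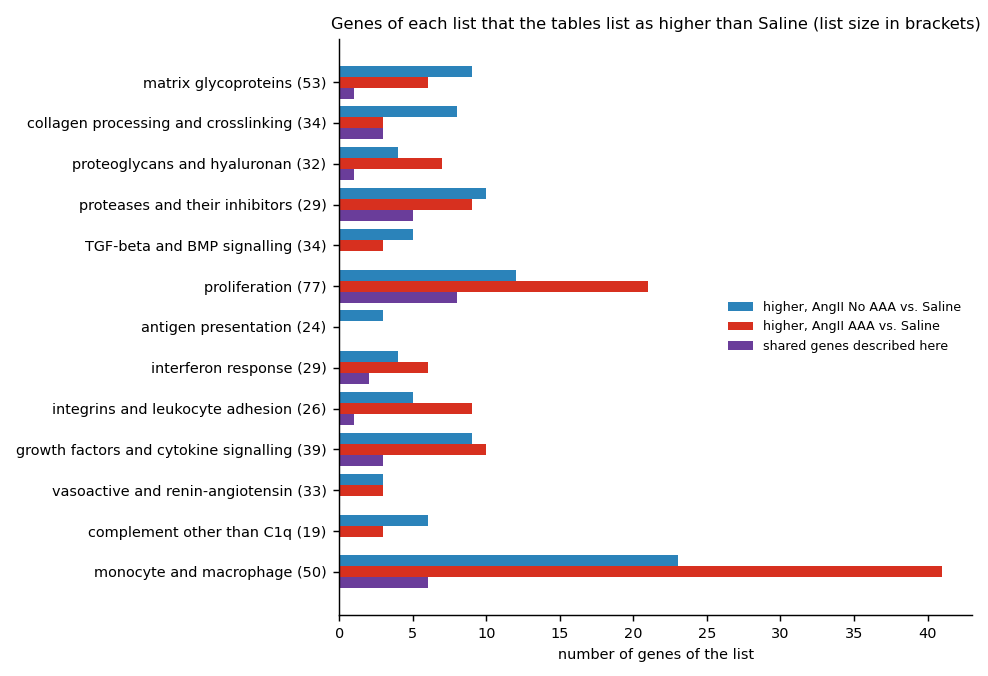
Number of genes of each list (list size in brackets) that were listed as higher than Saline in AngII No AAA (blue) and AngII AAA (red), and that belong to the 104 shared genes (purple). Collagen processing has 8, 3, and 3, and monocyte and macrophage markers have 23, 41, and 6. Smaller differences were listed in AngII No AAA than in AngII AAA, so blue and red counts have unlike reach.

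Markers of other cell types gave few shared genes. Of 20 fibroblast markers, 6 were higher in AngII No AAA and 2 in AngII AAA, with *S100a4* in the set. The 3 with values in every library summed to 97.2 FPKM in Saline, 276 FPKM in AngII No AAA, and 222 FPKM in AngII AAA. This sum joins unlike markers, since 1 was listed as higher and 1 as lower in AngII AAA than in AngII No AAA. In that comparison *Pdpn* was at 80 FPKM in AngII AAA against 28.9 FPKM, and *Pi16* at 46.9 FPKM against 177 FPKM. Neutrophil markers (7 of 15) and adrenal cortex markers (7 of 10) were higher in AngII AAA than in Saline, and no such marker appeared in AngII No AAA vs. Saline. B and plasma cell markers (2 of 10) and mast cell markers (1 of 10) were also higher only in the AngII AAA comparisons, 1 of 10 adipocyte markers was higher and 3 of 10 Schwann cell and nerve markers were lower in AngII No AAA than in Saline, and none of 16 T and NK cell markers was listed. Neutrophil and adrenal markers could contribute no gene to the set, because entry required listing in AngII No AAA vs. Saline.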

How the data were processed

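RNA of the suprarenal aorta was measured in 3 pooled libraries, 1 per cohort, prepared from total RNA with a NuGEN Ovation kit. The authors deposited FPKM values from Cuffdiff, in 1 table per comparison, and kept only entries with an unadjusted p-value under 0.05. The submitters' processing notes name FastQC, HISAT2, Cufflinks, Cuffdiff, and the mm9 build, and versions and strand setting are not given in the sources used here. Further deposited columns hold the authors' log2 fold change, test statistic, p-value, q-value, and significance call, and were not used.

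Log2 ratios were computed from FPKM without a pseudocount, and a gene at 0 was given no ratio. FPKM of a library differed between tables by a constant. The AngII No AAA value was therefore multiplied by 0.915, the ratio of the Saline values in the 2 tables. Absence from a table means that the gene failed the authors' p-value filter or had no test there. Read counts cannot be recovered from FPKM, so counting error is unknown. No test was run, because each cohort had 1 library.

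The genes, the 24 gene lists (12 pathways, 12 cell types), and the motifs were chosen with earlier results of these data known, and the 13 groups were assigned after values were seen. Genes named by rule were the 12 with the largest mean log2 fold change, the 10 highest in each AngII library, those at 0 in Saline with at least 5 FPKM in an AngII library, the 5 with the largest, the 5 with the smallest, and the 5 most equal ratios between the AngII libraries, the 3 with the smallest difference from Saline, the 3 just outside, and those in gene lists. The others were named after their values were seen, and 4 genes of the set are not reported here by name. Promoters were matched by symbol or synonym for 76 of 104 genes. The motifs AP-1 (TGACTCA), STAT (TTCNNNGAA), and CArG were also searched and were found in 10.5%, 15.8%, and 1.32% of these promoters and in 5.17%, 8.47%, and 1.57% of all. Alternatives were a pseudocount of 1, a minimum of 1 FPKM, entries for a single gene only, only genes above 0 in every library, at least 4-fold differences, the left-out symbols kept in, and 2 other scales between the AngII libraries. Calculations were tested on simulated data. Python 3.11.15, pandas 2.3.3, and numpy 2.4.6 were used.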

Additional observations from a re-analysis of the deposited data

How the results depend on the processing

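The number of shared genes was 104, and it was 103 with entries for a single gene only, 98 with only genes above 0 FPKM in every library, 123 with the left-out symbols kept in, and 17 when a difference of at least 4-fold from Saline was required in both comparisons, which by construction keeps fewer genes. The median log2 fold change of 2.19 in AngII AAA was 2.05 with a pseudocount of 1 and 2.24 with the left-out symbols. The median of 1.53 in AngII No AAA was 1.40 with the pseudocount, 1.55 with entries for a single gene only, and 1.62 with the left-out symbols. The median log2 ratio between the AngII libraries of 0.70 was 0.65 on the scale of AngII AAA vs. AngII No AAA, 0.57 with FPKM as deposited, and 0.68 with the pseudocount. Over the alternatives the number of genes higher in AngII AAA than in AngII No AAA ranged from 95 to 99 and the number within 1.5-fold from 33 to 51. With the pseudocount, 13 genes instead of 17 were at least 4-fold higher in both. No paired analysis was possible because each cohort had 1 library and the labels give no replicate numbers. The depth of each library and the spread between mice are unknown, and a ratio of low FPKM values rests on few reads.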

Other observations

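Lower than Saline in both AngII libraries and not listed between them were 29 entries, with median log2 fold changes of -1.60 in AngII No AAA and -2.17 in AngII AAA. They include genes of fast skeletal muscle, such as *Ckm*, muscle creatine kinase, at 103 FPKM in Saline, 14.4 FPKM in AngII No AAA, and 24.1 FPKM in AngII AAA, *Tcap*, telethonin of the sarcomere, at 93.1 FPKM in Saline, 19.2 FPKM in AngII No AAA, and 14.1 FPKM in AngII AAA, and *Myh4*, a fast myosin heavy chain, at 41.8 FPKM in Saline, 8.31 FPKM in AngII No AAA, and 7.23 FPKM in AngII AAA. *Gc*, the vitamin D-binding protein made by liver, was at 40.7 FPKM in Saline, 8.92 FPKM in AngII No AAA, and 8.36 FPKM in AngII AAA, and *Inmt*, a methyltransferase, was at 57.2 FPKM in Saline, 15.4 FPKM in AngII No AAA, and 10.8 FPKM in AngII AAA. *Hlf*, a circadian transcription factor, was at 18, 6.81, and 4.88 FPKM in Saline, AngII No AAA, and AngII AAA.

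Of 235 entries listed in both comparisons with Saline, 2 were higher in 1 AngII library and lower in the other. *Hp*, haptoglobin, an acute phase protein left out by symbol, was at 119.5 FPKM in Saline, 673 FPKM in AngII No AAA, and 1292 FPKM in AngII AAA, and *Lrg1*, an acute phase glycoprotein left out likewise, was at 50.7 FPKM in Saline, 159.9 FPKM in AngII No AAA, and 286 FPKM in AngII AAA, in the same order as *Serpina3n* and *Mt2*.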
